A study of Mus musculus with 4 samples.

Results

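The cytosolic ribosomal protein genes of the aged mouse lung are described here across cell classes and between BPTES-treated and vehicle-treated animals. Members were the features whose symbol starts with Rpl or Rps followed by a digit, together with Rpsa, Rplp0, Rplp1 and Rplp2. Symbols that contain -ps and the Rps6k kinases were left out, 9 and 10 features. The rule found 86 of the 31054 features, 52 named for the large subunit and 34 for the small subunit. The 34 include Rps19bp1, which encodes a binding partner of the ribosomal protein RPS19 and is not itself a ribosomal protein. Fau and Rack1 encode ribosomal proteins but fall outside the symbol rule, and they are given separately.

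The cytosolic ribosome joins a small subunit, which reads the mRNA, to a large subunit, which forms the peptide bond. Each ribosomal protein is needed in roughly equal number, and most of the mRNAs begin at a C followed by a run of C and T, the terminal oligopyrimidine (TOP) tract through which mTORC1 signalling sets their translation. Resting cells such as naive lymphocytes are known for a large fraction of ribosomal protein mRNA in a small total, and several members have a paralog whose product can take the same place in the ribosome.

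The study profiled lung cells by droplet single-cell RNA sequencing after dosing with BPTES, an allosteric inhibitor of glutaminase 1 (GLS1), which converts glutamine to glutamate. All animals were male C57BL/6 mice aged 19 months at the start, and the treatment lasted 1 month. The BPTES group and the DMSO group, the vehicle control, had 2 libraries each. Each library held a mixture of 20000 CD45-negative and 9000 CD45-positive sorted cells of the same tissue, so shares of cells are set by the sort. The labels do not say whether a library came from 1 animal, so the spread between libraries may be partly technical.

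Before the levels, a few start sites are shown, because the TOP tract lies at the start of the mRNA. RefSeq promoter windows (GRCm38.p6, 250 bases before to 50 bases after the annotated start) were matched to 66 of the 86 members. Each line gives 30 bases, 10 before the annotated start and 20 from it, 5′ to 3′ on the gene's strand, and capitals mark the unbroken run of C and T that begins at the annotated start. Rps6, Rplp2, Rps10 and Rps27 are shown as members with such a run, and Rps27rt, Rps27l, Rpl22 and Rpl22l1 because the results on paralogs turn on them.
Rps6: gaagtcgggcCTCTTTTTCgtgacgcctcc
Rplp2: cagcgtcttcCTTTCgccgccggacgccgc
Rps10: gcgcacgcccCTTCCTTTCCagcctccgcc
Rps27: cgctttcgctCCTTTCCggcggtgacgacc
Rps27rt: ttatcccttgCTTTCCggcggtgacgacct
Rps27l: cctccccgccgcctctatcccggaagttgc
Rpl22: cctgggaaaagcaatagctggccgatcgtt
Rpl22l1: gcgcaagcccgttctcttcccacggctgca
The windows lie at chr4:86857348-86857377 (Rps6, minus strand), chr7:141447641-141447670 (Rplp2, plus), chr17:27635225-27635254 (Rps10, minus), chr3:90213629-90213658 (Rps27, minus), chr9:114982720-114982749 (Rps27rt, minus), chr9:66946076-66946105 (Rps27l, plus), chr4:152325716-152325745 (Rpl22, plus) and chr3:28805498-28805527 (Rpl22l1, plus). From the start onward, Rps27rt shows the letters of Rps27 offset by 1 base, while the start of Rps27l is a different sequence and begins with a purine.

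A start at C followed by at least 4 of C or T was present in 13 of the 66 member windows (19.7%) and in 462 of 19407 windows of all genes in the files (2.38%). Any C or T at the start was present in 31 members (47.0%) and in 24.3% of all windows. The letters CTTTCC, read on the gene's strand and free to overlap the start run, were in 24 member windows (36.4%) against 13.9% of all. CCGGAAG, the core letters of ETS family sites, was in 25 member windows on either strand (37.9%) against 11.1% of all, and AAGATGGC, the core letters of YY1 sites, in 5 (7.58%) against 3.11%. These are descriptions of letters at annotated starts, which can lie some bases away from the start used in a tissue.

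The 4 libraries held 260346570 to 342107092 UMIs, and 14407 to 18860 cells per library entered the clustering, which was computed without the members. Members gave 6.99% and 7.08% of all UMIs in BPTES libraries 1 and 2 and 6.90% and 6.99% in DMSO libraries 1 and 2, and 3.15% to 3.66% in barcodes that failed the cell filters. Pairs of libraries shared 75 to 121 barcodes, 0.456% to 0.680% of the smaller library. Of 38 clusters, 6 stayed unnamed and held 20.4% of the 63895 cells. The 12 largest named classes were tested. For 11 of them at least 6 of 7 own markers had their highest level in that class, but for the general capillary endothelial-like class this held for only 2 of 6 markers, so that class is described with its clusters.

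Across the 12 tested classes, the members took the largest fraction of UMIs in T-like and B-like cells and the smallest in alveolar fibroblast-like and aerocyte-like cells. The mean share was 18.9% ± 0.481 (SD, n = 4 libraries) in T-like cells, 14.5% ± 0.541 in B-like cells and 12.7% ± 0.418 in classical monocyte-like cells. It was 8.87% ± 0.232 in non-classical monocyte-like cells, 7.68% ± 0.108 in adventitial fibroblast-like cells and 6.43% ± 0.492 in alveolar type 2 (AT2)-like cells, the surfactant-producing epithelium. Neutrophil-like and lymphatic endothelial-like cells followed with 5.08% ± 0.308 and 4.89% ± 0.315. The other endothelial classes had 4.14% ± 0.361 (venous), 3.24% ± 0.434 (general capillary) and 2.58% ± 0.112 (aerocyte, the capillary cell of gas exchange), and alveolar fibroblast-like cells had 2.55% ± 0.177. The mean of the highest class was 7.43 times that of the lowest.

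**Figure D1:**
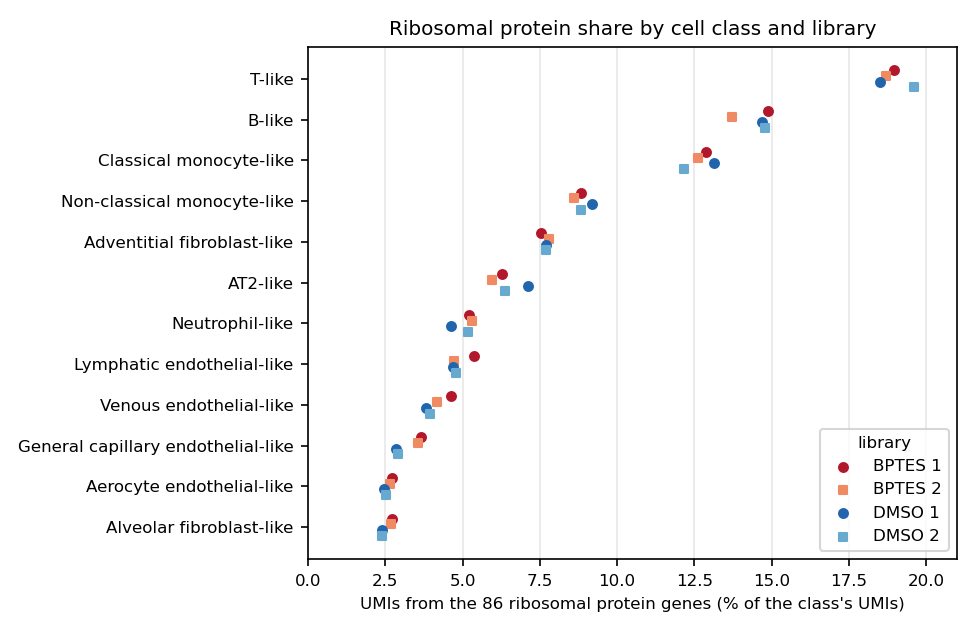
Percent of a class's UMIs that came from the 86 ribosomal protein genes (horizontal axis) in each of the 12 tested cell classes (vertical axis, by falling mean share); each point is 1 library, red (library 1) and orange (library 2) for BPTES, dark blue and light blue for DMSO. T-like cells lie at 18.5% to 19.6% and alveolar fibroblast-like cells at 2.39% to 2.73% in the 4 libraries.

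Neighbours in this order kept their order in all 4 libraries except 2 pairs. Neutrophil-like and lymphatic endothelial-like cells overlapped (higher in 2 of 4 libraries, exact permutation p = 0.50, adjusted 0.50), as did aerocyte-like and alveolar fibroblast-like cells (2 of 4, p = 0.50, adjusted 0.50). For the other 9 neighbouring pairs, and for T-like against alveolar fibroblast-like cells, the exact two-sided paired permutation p was the smallest that 4 pairs allow, and 0.15 after adjustment over 12 pairs. The difference between T-like and alveolar fibroblast-like cells was 16.4 ± 0.552 percentage points (SD of 4 paired differences).

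Between classes, the order of shares was not the order of median depth. Classical monocyte-like cells had a median of 26323 UMIs per cell and adventitial fibroblast-like cells 29221, while B-like cells had 11718 and general capillary-like cells 12229. In UMIs per cell rather than shares, T-like cells held 2970 to 3172 member UMIs, classical monocyte-like cells 3248 to 3819 and AT2-like cells 2579 to 3070, so the lymphocytes' place at the top is one of share. Within classes the share differed between depth quartiles, not always by steady steps. In the shallowest and the deepest quartile, the mean share was 13.4% and 22.2% in T-like and 12.04% and 12.5% in classical monocyte-like cells. From the shallowest quartile on, it was 9.04%, 14.4%, 14.5% and 15.6% in B-like cells. In neutrophil-like cells it was 2.51%, 2.14%, 2.17% and 7.47%. Shallow clusters lay at both ends. Unnamed clusters 6 and 12, with medians of 3276 and 2682 UMIs per cell, had shares of 13.6% to 14.4% and 11.1% to 12.6%, while unnamed cluster 24 (3386.5 UMIs) had 0.373% to 0.590% and the B-like cluster 26 (2356 UMIs) 1.34% to 1.69%.

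Within a class, clusters also differed. Among T-like cells, cluster 15, led by Ctla4 and Lef1, had 21.0% to 22.9%, cluster 11, led by Ccl5 and Cd8b1, had 19.0% to 20.5%, and cluster 19, led by Il23r and Cd163l1, had 12.7% to 12.9%. Among neutrophil-like cells, cluster 10, led by S100a9 and S100a8, had 1.69% to 2.40% at a median of 8956 UMIs per cell. The deeper cluster 27, led by Sgms2 and Csf3r, had 8.26% to 9.01% at a median of 28562. Its leading genes also included Adgre4, a marker of non-classical monocytes. Whether cluster 27 holds more than 1 cell type was not tested.

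Single members followed the share. Of the 85 with UMIs, 73 were highest in T-like cells, 8 in classical monocyte-like cells and 2 in B-like cells. The lowest class was alveolar fibroblast-like for 42 members and aerocyte-like for 36. In a model of all 12 classes with library as a block, 85 members passed the count filter; Rpl10l had no UMI in any tested class. Against the mean of the other 11 classes, edgeR's quasi-likelihood test called 83 of 85 members higher in T-like cells. The median log2 difference there was 1.70, and 38.1% of all genes were called higher. In classical monocyte-like cells the test called 85 of 85 (median 1.39, 36.2% of all genes). B-like cells had 82 higher (median 1.21, 36.8%) and non-classical monocyte-like cells 82 (median 0.72, 33.6%). Adventitial fibroblast-like cells had 63 higher and 6 lower (median 0.21, 42.2% and 33.8% of all genes).

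Alveolar fibroblast-like cells and the tested endothelial classes lay on the other side. The same test called 81 of 85 members lower in general capillary-like cells (median −1.14, 29.9% of all genes). It called 82 lower in alveolar fibroblast-like cells (median −1.52, 33.3%) and 82 in aerocyte-like cells (median −1.60, 33.4%). Venous endothelial-like cells had 83 lower (median −0.87, 31.3%) and lymphatic endothelial-like cells 83 (median −0.73, 31.2%). The neutrophil-like and AT2-like calls turned with the scaling. In neutrophil-like cells 46 members were called higher (32.2% of all genes) and 15 lower (41.2%), but with total UMIs in place of TMM factors 6 were called higher (22.5% of all genes) and 68 lower (55.9%). With RLE size factors 69 were higher (37.4%) and 6 lower (34.5%). In AT2-like cells 72 were called higher (36.3%), but with total UMIs 27 were higher (27.9%) and 20 lower (48.4%).

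That change of scale also moved the median of all genes, by −0.53 on the log2 scale in neutrophil-like and −0.33 in AT2-like cells. Relative to the median gene, the members lay 0.49 higher in neutrophil-like cells with TMM and 0.48 higher with total UMIs, and 0.45 and 0.46 higher in AT2-like cells. In T-like cells the values were 1.78 and 1.78, and in alveolar fibroblast-like cells −1.60 and −1.60. A change of scaling moves all genes of a class by nearly the same amount, so this likeness was fixed in advance. It does not settle the neutrophil-like and AT2-like calls.

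By role, the members that form the stalk of the large subunit, where elongation factors dock, are Rplp0, Rplp1 and Rplp2. Rplp0 was highest in T-like cells at 3181 CPM (UMIs of a gene scaled to a common total per class and library) and lowest in alveolar fibroblast-like cells at 253 CPM. Its share of all member UMIs was 2.13% in classical monocyte-like and 0.992% in alveolar fibroblast-like cells. The share of Rplp1 was instead highest in alveolar fibroblast-like cells, at 3.26% of member UMIs, although both proteins belong to the same stalk. It was lowest in neutrophil-like cells, at 1.71%. In level, Rplp1 was like Rplp0 highest in T-like cells, at 5276 CPM, and its lowest level was 500 CPM in aerocyte-like cells.

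Rps19, mutated in Diamond-Blackfan anaemia, took 2.93% of member UMIs in AT2-like cells and 1.10% in aerocyte-like cells. Rps6, the small-subunit protein phosphorylated downstream of mTORC1, took 1.33% in general capillary-like cells, its highest class, and 0.855% in alveolar fibroblast-like cells. Rpl5 and Rpl11, which with the 5S RNA bind MDM2 when ribosome assembly is disturbed, ranged between 0.921% and 1.29% and between 1.01% and 1.38%. Rpsa, the laminin-receptor homologue of the small subunit, took 2.02% in T-like and 1.16% in AT2-like cells.

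How much a member departed from the common pattern was measured as the SD, over the 12 classes, of the log2 of its share of all member UMIs, for the 83 members with a mean of at least 10 CPM. The median SD was 0.21. The 5 with the smallest SD were Rpl38 (0.06), Rpl37a (0.10), Rpl30 (0.10), Rpl9 (0.10) and Rpl11 (0.11), all of the large subunit. Rpl38 made up 0.829% to 0.953% of member UMIs in every class, although its level ran from 215 CPM in alveolar fibroblast-like to 1675 CPM in T-like cells.

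The 5 with the largest SD were Rps27l (1.16), Rps19bp1 (1.07), Rpl7l1 (0.88), Rpl22l1 (0.49) and Rpl12 (0.46). The first 4 are not core ribosomal protein genes but paralogs and a binding partner. Their levels spanned 3.23-fold (Rps27l), 3.46-fold (Rps19bp1), 2.78-fold (Rpl7l1) and 4.57-fold (Rpl22l1) between the lowest and the highest class. Rpl12, a core protein at the base of the stalk, spanned 17.4-fold, from 195 CPM in aerocyte-like to 3397 CPM in T-like cells. Rpl12 took 1.79% of member UMIs in T-like cells, 1.54% in B-like cells and 0.614% in neutrophil-like cells.

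**Figure D2:**
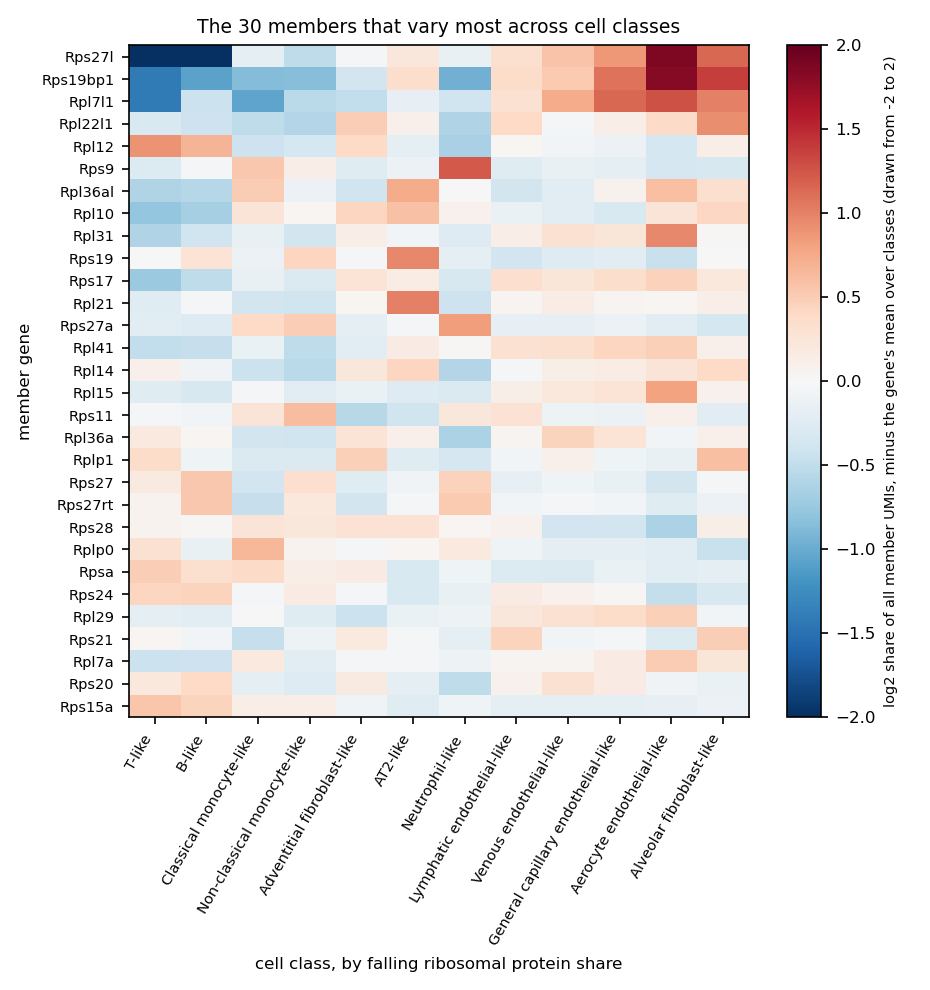
Log2 of each gene's share of all member UMIs minus its mean over the 12 classes (colour, drawn from −2 to 2) for the 30 members with the largest spread; columns are cell classes by falling ribosomal protein share. Rps27l, Rps19bp1 and Rpl7l1 are blue in T-like and red in aerocyte-like cells, while Rpl12 is red in T-like cells.

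The order of the paralogs across classes is easiest to read as a share of each pair, which sets a gene against its parent in the same cells. These shares compare 3′ UMI counts that are not corrected for length, so only their change between classes is read. Rps27l, a p53 target whose product can replace RPS27, made up 2.28% ± 0.127 (SD, n = 4) of the Rps27 and Rps27l CPM in B-like cells. Its share was 2.87% in T-like cells and 14.1% in classical monocyte-like cells. Alveolar fibroblast-like cells had 24.2% and aerocyte-like cells 39.8% ± 1.62. The ranges over 4 libraries, 2.17% to 2.46% in B-like and 38.04% to 41.6% in aerocyte-like cells, did not overlap. The parent moved more than the paralog, since Rps27 ran from 228 to 2432 CPM and Rps27l from 56.0 to 181 CPM.

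Other pairs had orders of their own. Rpl22l1, the paralog of Rpl22, made up 39.8% of its pair in alveolar fibroblast-like cells, 34.5% in adventitial fibroblast-like cells and 21.7% in classical monocyte-like cells. Rpl36al made up 41.9% of its pair with Rpl36a in classical monocyte-like cells and 18.5% in T-like cells. Rpl7l1, which despite its name acts in ribosome assembly, made up 11.97% of its pair with Rpl7 in alveolar fibroblast-like and 3.14% in T-like cells. Rpl39l, the testis paralog of Rpl39, had a mean at or below 1.36 CPM in each tested class, with 3.66 CPM in its highest library.

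Rps27rt, a retrogene on chromosome 9 (114982366 to 114982739, minus strand, inside Osbpl10), kept a constant share. It made up 5.22% to 6.14% of its pair with Rps27 in all 12 classes. The longest local alignment of its transcript with that of Rps27 covered 307 bases with 307 identical, while that of Rps27l with Rps27 was 74.7% identical. Reads of the 2 copies may have been split between them, so the Rps27rt values are uncertain.

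**Figure D3:**
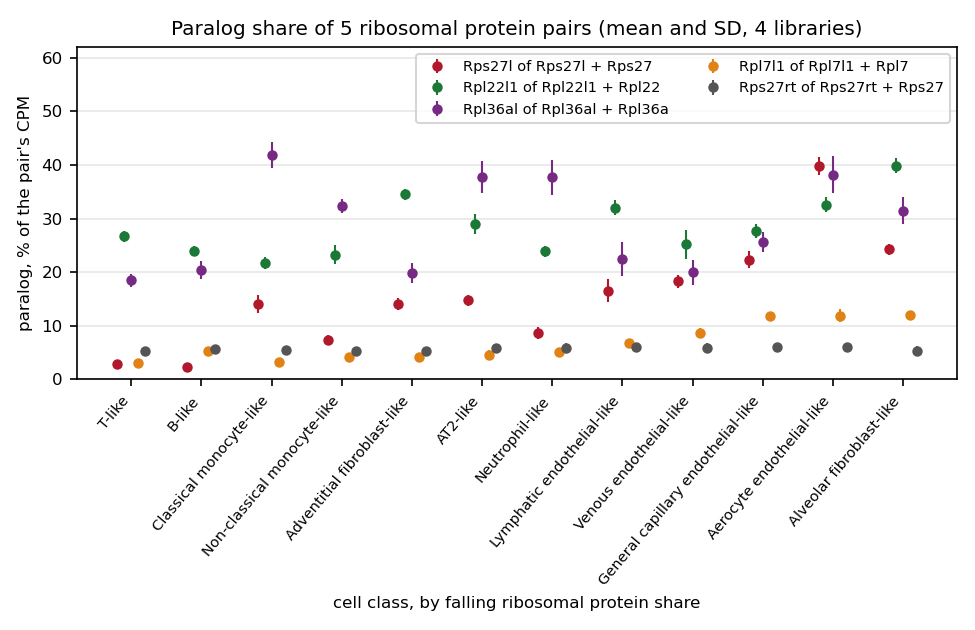
Share of a pair's CPM that came from the paralog (vertical axis, %, mean with SD over 4 libraries) in each cell class (horizontal axis, by falling ribosomal protein share) for 5 pairs. Rps27l climbs from 2.28% in B-like to 39.8% in aerocyte-like cells, whereas Rps27rt stays between 5.22% and 6.14%.

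Rpl3l, the paralog of Rpl3 known from heart and skeletal muscle, was highest in non-classical monocyte-like cells. Its 4 libraries there had 17.2, 13.2, 20.1 and 20.9 CPM (BPTES 1 and 2, DMSO 1 and 2), from 657 UMIs in all. Neutrophil-like cells had 8.96, 7.68, 8.26 and 12.1 CPM, and T-like cells 0.303 CPM on average. Rpl3l lies on chromosome 17 from 24727820 to 24736143 on the plus strand, and the next gene on that strand, Msrb1, starts 499 bases downstream. Msrb1 stood at 569 CPM in non-classical monocyte-like, 1531 CPM in neutrophil-like and 23.0 CPM in T-like cells. In classical monocyte-like cells Msrb1 stood at 727 CPM and Rpl3l at 3.07 CPM. In AT2-like cells they stood at 47.4 and 0.0985 CPM. Whether reads of Msrb1 contributed to the Rpl3l counts was not tested. Across the module, 24 of 86 members overlap another listed gene in the GENCODE M21 annotation.

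The second comparison set BPTES against DMSO within each class. Among the 12 tested classes, the largest difference in class share was in general capillary endothelial-like cells, the capillary cells that also renew the bed. Members gave 3.66% and 3.56% of UMIs in BPTES libraries 1 and 2, against 2.83% and 2.91% in DMSO libraries 1 and 2. Both BPTES values lay above both DMSO values, by 0.747 percentage points on average, a ratio of 1.26. The exact permutation p was 0.3333, the smallest that 2 against 2 libraries allow.

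The same order held within parts of the class. Cluster 2 had 2.82% and 2.56% against 2.19% and 2.29%, cluster 3 had 3.42% and 3.16% against 2.80% and 2.90%, and cluster 5, led by Inhbb and Esm1, had 4.55% and 4.49% against 4.15% and 3.75%. The unnamed endothelial cluster 1, led by Cxcl12 and Efnb2, had 3.996% and 3.47% against 3.06% and 3.27%. In these 4 clusters both BPTES libraries lay above both DMSO libraries. They overlapped in the shallow unnamed cluster 12, whose best-matching markers were also those of general capillary endothelium, at 12.6% and 11.1% against 12.1% and 11.7%.

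Cluster mix and depth differed between the groups too. Cluster 5, the cluster with the highest share, held 958 and 1031 cells in BPTES and 360 and 918 in DMSO. These were 35.0% and 39.8% of the class in BPTES and 14.5% and 22.9% in DMSO. Cluster 3 held 27.1% and 17.7% against 45.7% and 36.2%, and cluster 2 held 37.9% and 42.5% against 39.9% and 40.9%. With every cluster weighted alike in each library, the difference was 0.488 percentage points in place of 0.747. Median UMIs per cell were 12356 and 12939 in BPTES and 11826 and 11911.5 in DMSO, and the share climbed with depth, from 2.10% to 2.80% in the shallowest quartile of cells to 3.32% to 4.29% in the deepest. BPTES lay above DMSO in each of the 4 quartiles, and with quartiles weighted alike the difference was 0.569 percentage points.

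**Figure D4:**
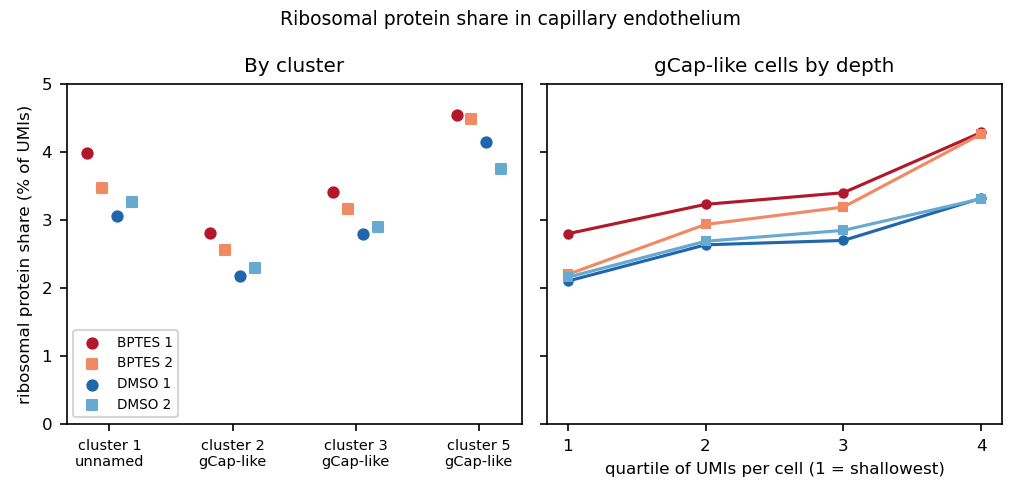
Percent of UMIs from the 86 ribosomal protein genes (vertical axis) in each library, left by cluster (general capillary endothelial-like clusters, here gCap-like, and unnamed cluster 1) and right by quartile of UMIs per cell in the general capillary-like class. The red and orange BPTES points lie above the blue DMSO points in each cluster and each quartile.

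Per cell, general capillary-like cells held 455 and 460 member UMIs in BPTES and 327 and 339 in DMSO, beside 11979 and 12443 other UMIs against 11230 and 11329. Mitochondrial UMIs were 1.41% and 1.61% against 1.33% and 1.35%. Free RNA was read from Sftpc, the surfactant transcript of AT2 cells, which these cells should lack. It stood at 316 and 220 CPM against 81.0 and 179 CPM. That was 0.188%, 0.133%, 0.0497% and 0.106% of its level in AT2-like cells of the same library. These percentages take no account of how many AT2-like cells a library held, 406 and 408 in BPTES and 127 and 251 in DMSO. Scgb1a1, a club cell transcript, stood at 77.9 and 102 against 21.1 and 135 CPM. Haemoglobin transcripts stood at 0.587 and 0.808 against 3.72 and 0.342 CPM. Both of these overlapped between the groups. In T-like cells Sftpc stood at 279 and 198 against 64.9 and 146 CPM, the same order of libraries. Of 27 marker lists of other cell types or states, 6 were summed higher in both BPTES libraries, 9 lower, and 12 overlapped. Venous markers stood at 556 and 522 against 785 and 691 CPM and alveolar macrophage markers at 31.3 and 24.9 against 211 and 101 CPM. Arterial markers stood at 1028 and 1140 against 994 and 976 CPM. The parts of depth, cluster mix, free RNA and these markers in the difference were not tested beyond these values.

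Gene by gene, the shift in general capillary-like cells was nearly uniform. Of 84 members that passed the filter, 83 had a positive log2 fold change, with a median of 0.41 and quartiles of 0.38 and 0.44, while the median of all 15315 genes was −0.01. The CPM of BPTES and DMSO did not overlap, with BPTES higher, for 82 members (18.8% of all genes). Large-subunit and small-subunit members had medians of 0.40 and 0.42.

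For Rps6, the 4 libraries had 481 and 490 CPM (BPTES) against 371 and 379 CPM (DMSO), a log2 fold change of 0.45 ± 0.08 (SE). For Rplp0 the values were 433 and 434 against 335 and 350 CPM (0.42 ± 0.08). Rpsa had 478 and 483 against 359 and 374 CPM (0.47 ± 0.08). In each of these the groups were separated by more than the gap between their own libraries. Rps3, at the mRNA entry of the small subunit, had 462 and 441 against 333 and 357 CPM (0.46), and Rps10 had 497 and 489 against 387 and 411 CPM (0.38).

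The same held for Rps19 with 477 and 469 against 344 and 375 CPM (0.47 ± 0.08), and for Rpl5 with 379 and 375 against 276 and 295 CPM (0.48 ± 0.08). Rpl11, its partner in the 5S particle, had 429 and 427 against 346 and 358 CPM (0.36 ± 0.08). Rpl13a, released by phosphorylation to silence translation in inflammation, had the second-highest fold change of the members, with 85.4 and 83.6 against 58.7 and 65.1 CPM (0.52 ± 0.08). Only Rpl3l was lower in both BPTES libraries, at 1.70 and 1.41 against 2.50 and 1.99 CPM (−0.44 ± 0.24). Rps27rt overlapped between the groups, at 21.0 and 22.9 against 22.7 and 17.7 CPM.

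None of these passed the test across all genes. edgeR's quasi-likelihood test with Benjamini-Hochberg adjustment called 0 of 84 members in general capillary-like cells, where it called 0% of all genes; the smallest adjusted p of a member was 0.099. At an unadjusted p under 0.05 it had 82 members higher (11.7% of all genes) and 0 lower, and DESeq2 called 76 members higher (2.68% of all genes). The count changed with the libraries and the filter. It was 81 without BPTES library 1 (9.14% of all genes were called higher), 70 without BPTES library 2 (1.08%), 0 without DMSO library 1 (0.0508%) and 1 without DMSO library 2 (0.304%). Each of these fits leaves 1 library in a group, which is assumed to vary like the pair in the other group. Without the filter on low counts 80 members were called (4.82% of all genes). Members of 1 library share its cells and its scaling, so 82 genes are not 82 separate pieces of evidence.

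**Figure D5:**
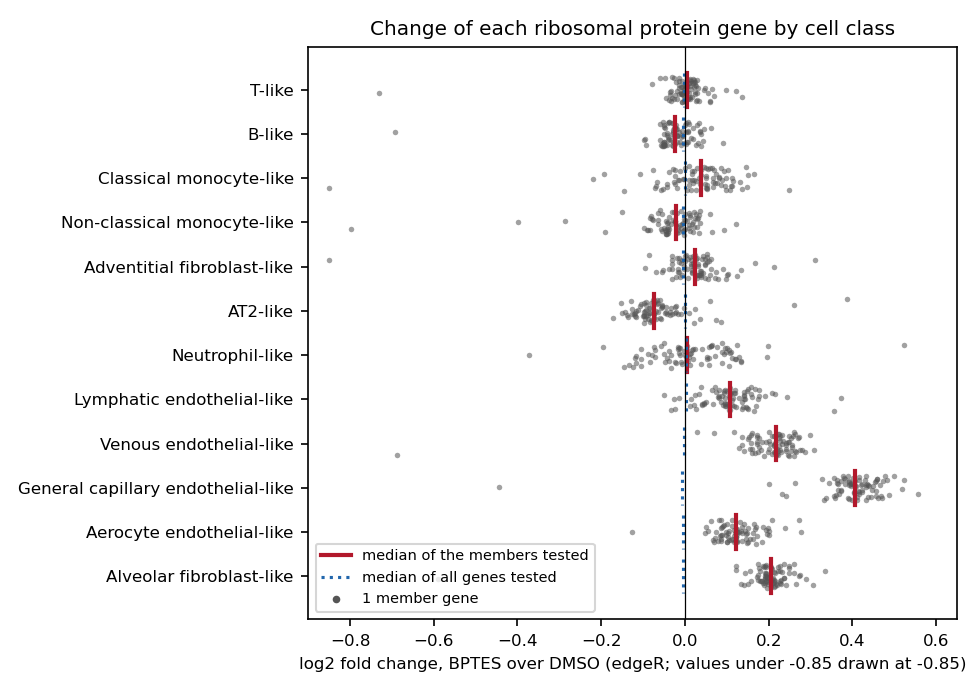
Log2 fold change of BPTES over DMSO (horizontal axis, edgeR) for each member that passed the filter (grey points) in each class (vertical axis); red bars are the members' medians and dotted blue bars the medians of all genes tested, and values beyond the axis are drawn at its left end. The members' median is 0.41 in general capillary-like cells and lies between −0.07 and 0.22 in the other 11 classes.

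Alveolar fibroblast-like, venous and aerocyte-like cells had smaller differences of the same sign. Alveolar fibroblast-like cells had shares of 2.73% and 2.67% in BPTES and 2.40% and 2.39% in DMSO. The members' median log2 fold change was 0.20, with 80 of 84 members higher in BPTES without overlap (21.9% of all genes) and 69 higher and 1 lower at an unadjusted p under 0.05 (9% of all genes were higher). DESeq2 called 2 members higher there (1.02% of all genes). Mitochondrial UMIs also stood higher in BPTES, at 1.41% and 1.46% against 1.24% and 1.22%, as did median UMIs per cell, at 21130 and 21525 against 19458.5 and 20227. Of 27 marker lists of other cell types or states, 9 were summed higher in both BPTES libraries and 9 lower. Adventitial fibroblast markers stood at 269 and 229 against 213 and 219 CPM, and Sftpc at 221 and 163 against 61.0 and 125 CPM. Their part in the difference was not tested.

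Venous endothelial-like cells had shares of 4.63% and 4.18% against 3.81% and 3.93%, with a median member log2 fold change of 0.22. Of 84 members, 71 were higher without overlap (18.1% of all genes) and 28 had an unadjusted p under 0.05 (4.87%). The share difference of 0.533 percentage points was 0.309 without BPTES library 1, the library with the highest value. Median UMIs per cell stood at 14660 and 14446 against 13802.5 and 14342, mitochondrial UMIs at 1.64% and 1.56% against 1.43% and 1.45%, and the groups overlapped in 2 of 4 depth quartiles. In BPTES library 1 these cells also carried 2682 CPM of Scgb1a1, a club cell transcript, against 17.1 to 75.8 CPM in the other 3 libraries. Of the 27 marker lists 7 were summed higher in both BPTES libraries and 6 lower, with AT2 markers at 395 and 290 against 158 and 245 CPM, and their part was not tested.

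Aerocyte-like cells had 2.70% and 2.65% against 2.47% and 2.51%, a median log2 fold change of 0.12, 66 of 83 members higher without overlap (17% of all genes) and 19 at an unadjusted p under 0.05 (4.61%). Median UMIs per cell stood at 18340 and 18068 against 16767 and 17781, and the groups overlapped in the shallowest and the deepest of the 4 depth quartiles. Mitochondrial UMIs were 1.09% and 1.14% against 1.05% and 1.04%. Of the 27 marker lists 10 were summed lower in BPTES and 1 higher, with lymphatic markers at 209 and 145 against 511 and 261 CPM. Sftpc stood at 238 and 176 against 60.3 and 126 CPM. Junb, an immediate-early gene on the list of RNA quality and stress, was called lower by edgeR in aerocyte-like cells, at 561 and 559 against 865 and 736 CPM (log2 fold change −0.49, adjusted p = 0.0474). The part of these values in the member difference was not tested. In lymphatic endothelial-like cells the shares overlapped, at 5.36% and 4.71% against 4.70% and 4.79%. Differences between classes in the size of the change were not tested.

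The tested immune classes and adventitial fibroblast-like cells had member medians near 0 at the main settings. T-like cells had 19.0% and 18.7% against 18.5% and 19.6%, and a median log2 fold change of 0.00. B-like cells had 14.9% and 13.7% against 14.7% and 14.8%, and classical monocyte-like cells 12.9% and 12.6% against 13.1% and 12.1%. Non-classical monocyte-like cells had 8.84% and 8.61% against 9.18% and 8.84%, and adventitial fibroblast-like cells 7.53% and 7.79% against 7.70% and 7.68%. In each of these 5 classes the groups overlapped. Immune classes with fewer cells were not tested. Of these, both BPTES shares lay higher in natural killer-like, alveolar macrophage-like and plasma-like cells and lower in interstitial macrophage-like cells. The shares of dendritic-like cells overlapped. In non-classical monocyte-like cells the overlap was by less than the printed digits (8.8447% in BPTES library 1 and 8.8445% in DMSO library 2), and 31 of 85 members were lower in BPTES without overlap (23.9% of all genes) and 1 higher. Its main cluster, cluster 7, overlapped, at 8.82% and 8.58% against 8.72% and 8.70%. Cluster 37, led by Gzma, had 10.9% and 10.5% against 13.1% and 13.8%, from only 4 and 4 cells in BPTES and 16 and 11 in DMSO.

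Neutrophil-like cells had 5.21% and 5.31% in BPTES against 4.62% and 5.17% in DMSO, a difference of 0.359 percentage points that was 0.0847 without DMSO library 1 and 0.634 without DMSO library 2. Sftpc in these cells was at 0.179% and 0.386% of its AT2-like level in BPTES and 0.463% and 0.0976% in DMSO. In its larger cluster, cluster 10, the shares were 2.34% and 2.40% against 1.72% and 1.69%, and in cluster 27 they were 8.38% and 8.26% against 9.01% and 8.51%. BPTES was thus higher in one cluster and lower in the other, and with both weighted alike the difference was 0.115 percentage points with overlapping groups. With depth quartiles weighted alike it was 0.605 percentage points, at 3.93% and 3.82% against 3.20% and 3.35%. General capillary-like cells had 0.569 percentage points by the same weighting.

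AT2-like cells were the only one of the 12 tested classes in which both BPTES libraries lay below both DMSO libraries, at 6.28% and 5.95% against 7.11% and 6.38%. The difference of −0.634 percentage points was −1.0001 without DMSO library 2 and −0.267 without DMSO library 1, which held 127 AT2-like cells against 251 to 408 in the others. The members' median log2 fold change was −0.07. Of 83 members, 51 were lower in BPTES without overlap (32.6% of all genes) and 1 at an unadjusted p under 0.05 (9.42%). Of 27 marker lists of other cell types or states, 13 were summed lower in both BPTES libraries and 1 higher. Neutrophil markers stood at 15.1 and 19.5 against 113 and 31.0 CPM and general capillary markers at 80.3 and 93.2 against 193 and 104 CPM, highest in DMSO library 1, which also had the highest member share. The mean member share was 5.08% in neutrophil-like and 3.24% in general capillary-like cells, below the 6.43% of AT2-like cells. The part of these markers in the difference was not tested. Rpl7l1 went the other way with a log2 fold change of 0.39 ± 0.08 and the smallest adjusted p of a member in this class, 0.092.

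In all 12 classes edgeR called 0 members at an adjusted p under 0.05. The share of all genes called was 0% in the T-like, B-like, neutrophil-like and adventitial fibroblast-like classes as in the general capillary-like class. It was 0.0493% in alveolar fibroblast-like, 0.0592% in non-classical monocyte-like, 0.107% in classical monocyte-like, 0.00826% in venous, 0.146% in aerocyte, 0.559% in lymphatic endothelial-like and 0.549% in AT2-like cells. DESeq2 called 0 members in the 10 classes other than general capillary-like and alveolar fibroblast-like. Leaving out 1 library gave 1 called member as higher in alveolar fibroblast-like cells (without BPTES library 1, 0.746% of all genes), in venous and in aerocyte-like cells (each without BPTES library 2, 0.511% and 0.181%) and in AT2-like cells (without DMSO library 2, 1.84%). It gave 1 as lower in classical monocyte-like cells (without DMSO library 2, 0.837%). At an unadjusted p under 0.05 edgeR had 3 members higher (8.67% of all genes) and 3 lower (7.56%) in classical monocyte-like cells, 1 lower in adventitial fibroblast-like cells (7.71%) and 1 higher in lymphatic endothelial-like cells (4.98%). It had 0 members in T-like, B-like, neutrophil-like and non-classical monocyte-like cells.

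Other genes of translation were read from the same fit in general capillary-like cells, and edgeR called none of them in any of the 12 classes. Rack1 and Fau, which encode ribosomal proteins outside the symbol rule, had log2 fold changes of 0.41 and 0.32. Rack1, the scaffold on the head of the small subunit, stood at 359 and 357 CPM against 283 and 285 CPM. Elongation factors had a median of 0.33, with 7 of 8 higher at an unadjusted p under 0.05, where 11.7% of all genes were higher. For further mRNAs with a TOP start the median was 0.30 (12 of 13), for initiation factors 0.24 (17 of 26) and for ribosome biogenesis genes 0.37 (23 of 35).

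Regulators and the mitochondrial ribosome had smaller medians. Genes of mTORC1 control of translation had a median of 0.10, with 6 of 22 higher at an unadjusted p under 0.05, and mitochondrial ribosomal proteins a median of 0.11 with 18 of 77, beside the same 11.7% of all genes. Over the 7 lists, 85 of 183 genes were higher and 0 lower at an unadjusted p under 0.05 in general capillary-like cells. Classical monocyte-like cells had 6 higher (8.67% of all genes) and 34 lower (7.56%), with a median of −0.08. Alveolar fibroblast-like cells had 42 higher (9%) and 3 lower (9.83%), with a median of 0.10. None of these passed the adjusted threshold of edgeR, and DESeq2 called 40 genes of the lists over all classes. It called 2.68% of all genes higher in general capillary-like and 1.02% in alveolar fibroblast-like cells. The 40 were not set against a pooled share. The lists were written with earlier results of these data known, so their direction is no separate evidence.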

How the data were processed

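Single-cell libraries of digested, CD45-sorted lung were made with the 10x GEM-X 3′ v4 kit, per the labels' protocols. The deposited matrices hold raw UMI counts per feature and barcode, made by the authors with Cell Ranger 8.0.1 on mm10, per the submitters' processing notes. The annotation release and strand setting are not given in the sources used here. Barcodes with at least 500 genes, 1000 UMIs and at most 10% mitochondrial UMIs were kept. The barcodes with the highest doublet scores (0.4% per 1000 barcodes) were removed. The scores came from custom code that uses the Scrublet formula on simulated doublets. Cells were clustered (2000 variable genes without the members, 40 principal components, 15 neighbours, Leiden resolution 1), and a cluster was called X-like only from RNA markers.

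Counts were summed per library and class and tested on all genes with edgeR 4.0.16 (R 4.3.3; TMM, quasi-likelihood, Benjamini-Hochberg adjustment, threshold 0.05), with DESeq2 1.42.0 as an alternative. The code was tested on simulated data. Shares of UMIs were compared over libraries by exact two-sided permutation tests. Because nothing says that libraries came from separate animals, p-values measure only the spread between libraries. Members took no part in the clustering, but genes that vary with them did.

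The named genes were the paralog pairs, the 5 members with the largest and the 5 with the smallest spread of composition, and 12 fixed members (Rpsa, Rplp0, Rplp1, Rplp2, Rps6, Rpl5, Rpl11, Rps19, Rpl13a, Rps3, Rps10 and Rps19bp1). CPM is a gene's UMIs scaled to a common total per class and library. Members and gene lists were chosen with earlier results of these data known. Alternatives were another scaling, filter, resolution, mitochondrial limit, doublet handling and thinning to 3000 UMIs, a replicate block and leaving out each library. The 6 unnamed clusters and the classes other than the 12 with most cells were not tested.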

Additional observations from a re-analysis of the deposited data

Results flagged for a closer look

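In 5 of the 12 tested classes both BPTES libraries had a higher share of UMIs from ribosomal protein genes than both DMSO libraries, while in AT2-like cells both had a lower share. The differences, BPTES minus DMSO, were 0.747 percentage points in general capillary endothelial-like, 0.533 in venous endothelial-like, 0.359 in neutrophil-like, 0.304 in alveolar fibroblast-like and 0.187 in aerocyte-like cells, against −0.634 in AT2-like cells. The opposite directions flagged these classes, and the difference between them was not tested.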

How the results depend on the processing

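Members called between BPTES and DMSO in general capillary-like cells numbered 0, but 76 with DESeq2, 80 without the filter on low counts, 2 after thinning to 3000 UMIs (0.282% of all genes called higher), and 0 to 81 when 1 library was left out. The members' median log2 fold change there lay between 0.30 (resolution 2) and 0.44 (at most 5% mitochondrial UMIs) over 14 alternatives. In neutrophil-like cells it lay between −0.04 (without DMSO library 1) and 0.38 (doublets kept) over 16 alternatives. In T-like cells it lay between −0.04 (without DMSO library 1) and 0.11 (resolution 2). Other class counts left 0 as follows: alveolar fibroblast-like 2 with DESeq2, neutrophil-like 10 higher at resolution 0.5 (0.194% of all genes), classical monocyte-like 1 lower (1.73%) and aerocyte-like 1 higher (0.828%) without the filter, and 0 to 1 on leaving out 1 library in the alveolar fibroblast-like, classical monocyte-like, venous, aerocyte-like and AT2-like classes. Other translation genes went from 0 to 40 with DESeq2, 96 without the filter, 1 at resolution 0.5, 5 thinned, and 3 to 73 on leaving out 1 library.

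Differences in share that changed sign were those of overlapping groups. In T-like cells −0.207 became 0.888 at resolution 2, 0.870 with members in the clustering, 0.0405 with doublets kept, 0.206 with clusters (without overlap) and 0.247 with depths weighted alike, 0.00125 thinned, and −0.761 to 0.346 on leaving out 1 library. In B-like cells −0.433 became 0.0815 as a mean over cells, and −1.02 to 0.151 on leaving out 1 library. In adventitial fibroblast-like cells −0.0329 became 0.226 as a mean over cells, 0.0332 with members in the clustering, 0.1252 with clusters weighted alike and 0.183 thinned, and −0.162 to 0.0965 on leaving out 1 library. In lymphatic-like cells 0.288 became −0.451 with clusters weighted alike, which gives equal weight to a cluster of 10 to 12 cells per library, and −0.0371 to 0.613 on leaving out 1 library. In non-classical monocyte-like cells −0.282 became −1.38 without overlap with clusters weighted alike, where the smaller cluster held 4 to 16 cells per library. In classical monocyte-like cells the range was −0.390 to 0.595. The cause of these changes was not tested.

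Against the other classes, total UMIs gave 2 members higher in general capillary-like, venous and lymphatic-like cells (50.2%, 43.8% and 48.6% of all genes), 6 higher and 68 lower in neutrophil-like (22.5% and 55.9%), and 27 higher and 20 lower in AT2-like cells (27.9% and 48.4%). RLE factors gave 69 higher and 6 lower in neutrophil-like cells (37.4% and 34.5%). Non-classical monocyte-like cells had 0 lower without the filter (21.9% of all genes). Leaving out 1 library gave 0 to 1 for members higher in general capillary-like (38.6% to 40.4% of all genes) and alveolar fibroblast-like cells (43.3% to 44.0%). The same range held for members higher in venous (30.5% to 31.4%) and lymphatic-like cells (29.1% to 29.8%). It also held for members lower in non-classical monocyte-like cells (30.1% to 33.2%).

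Libraries share replicate numbers, but the labels do not pair them. With the replicate block, 79 members were called higher in general capillary-like cells (6.17% of all genes), 5 in aerocyte-like cells (1.70%) and 59 other translation genes. With the crossed pairing the counts were 0 members in each class and 8 other translation genes. The translation gene counts are sums over all classes, given without a share of all genes. The general capillary-like class was not recovered at resolution 0.5 or with doublets kept, so those alternatives gave no value for it. With 2 libraries a group, differences smaller than the spread between libraries were not detectable.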

Other observations

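A pair of core members outside the naming rule were singled out after their values were seen. Rps9 took 3.76% of member UMIs in neutrophil-like cells, and Rpl21 took 3.52% in AT2-like cells. The ratio of large-subunit to small-subunit UMIs was 1.12 in non-classical monocyte-like and 1.46 in aerocyte-like cells, the lowest and the highest of the 12 classes.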
